A study of Mus musculus with 20 samples.

Results

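Toll-like receptors are the innate immune sensors of the cell surface and of endosomes, and the members described here are the 9 receptor genes Tlr1, Tlr2, Tlr3, Tlr4, Tlr6, Tlr7, Tlr8, Tlr9 and Tlr13 together with Cd14, the co-receptor that hands lipopolysaccharide to TLR4. They were chosen by symbol from the deposited expression table, and all 10 of 10 were present among its 16810 genes. TLR2 recognises bacterial lipopeptides as a heterodimer with TLR1 or TLR6, and TLR4 recognises lipopolysaccharide with its partner MD-2, encoded by Ly96. TLR3, TLR7, TLR8, TLR9 and TLR13 bind nucleic acids inside endosomes, and most of the family signals through the adaptor MYD88 to NF-kB, while TLR3 uses TRIF. Microglia carry most of these receptors and use them to sense microbes and the debris of damaged tissue.

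The RNA came from eGFP-high microglia sorted by flow cytometry from the spinal cord of adult CX3CR1+/eGFP mice, and all 7 groups carried this genotype, in which eGFP takes the place of an allele of the fractalkine receptor gene. Non-injured mice (NI) gave 3 samples. Mice with a lateral hemisection at thoracic level (HS) were sampled 72 h (3 samples), 1 week (2 samples) and 2 weeks (3 samples) later. Full transection (FT) was followed at the same times, with 3 samples each. The study describes HS as the moderate and FT as the severe injury, and the comparisons address how microglial transcripts change with time and severity. The NI mice are not labelled as sham-operated, the labels do not tie mice to samples, and the study used more mice than there are samples, so p-values measure the spread between these samples. In this genotype circulating monocytes carry eGFP too.

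The depth on the genes of the table was 3.87 to 34.1 mega-reads per sample. The unit is CPM, counts scaled to the library size times its edgeR factor, and 1 read was worth between 0.0330 and 0.292 CPM. Over all genes, the CPM of a sample summed to 777426 to 830481 in NI and to 878070 to 1202186 after injury. Fold changes from NI therefore depend on this scaling, and some are also given below with columns scaled to a common total. The summed level of 10 homeostatic microglia markers was between 18503 and 38940 CPM in all 20 samples, lowest in FT 1 week replicate 1, which also deviated most from its group (root mean square residual 0.490 on the log2 scale, against 0.207 to 0.404 in the other samples). Within that sum the markers moved in different directions. From NI to FT 72 h the mean of P2ry12 fell from 4223 to 2295 CPM and that of Tmem119 from 1239 to 566 CPM. Between the same groups Fcrls rose from 1713 to 5248 CPM and Olfml3 from 2466 to 4737 CPM. For infiltrating monocytes, 7 of 8 listed symbols were measured, and the other, Chil3, is another symbol of the measured Chi3l3. Together the 7 markers reached 33.0 to 40.0 CPM in NI. After injury they reached 580.0 to 747 CPM at HS 72 h, 518 to 1232 CPM at FT 72 h, and 185 to 468 CPM at the later times. After injury most of that sum was Fn1 (mean 597 CPM at FT 72 h and 12.9 CPM in NI), while the mean of Ccr2 was 97.1 and 18.0 CPM and that of Ly6c2 4.64 and 1.08 CPM in the same groups. Summed over 7 genes, astrocyte markers ranged from 374 to 675 CPM without injury and from 127 to 310.2 CPM with it. Not all of them fell. From NI to FT 72 h the mean of Slc1a2 went from 113 to 42.8 CPM, but that of Aldh1l1 from 6.20 to 14.5 CPM. Slc1a3 had a mean of 122 CPM in NI and 161 CPM at FT 1 week. The sum of 5 proliferation genes was 29.9 to 33.8 CPM in NI and 520.4 to 845 CPM at 72 h. The part of these markers in the results below was not tested. In sorted bulk samples, fewer cells of a type and less RNA per cell cannot be told apart.

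Tlr1 and Tlr6 share part of their sequence, so that some reads cannot be told apart. The Tlr1 gene (chr5:64924679-64933563, minus strand, GRCm38) and the Tlr6 gene (chr5:64952031-64960097, minus strand) lie close together and share a run of 229 identical bases in their coding exons. It covers bases 1468 to 1696 of the 2385 coding bases of Tlr1 (chr5:64925537-64925765) and bases 1507 to 1735 of the 2418 of Tlr6 (chr5:64953828-64954056), and it is printed because a read that falls inside it cannot be told to come from the one or the other.
Tlr1 and Tlr6: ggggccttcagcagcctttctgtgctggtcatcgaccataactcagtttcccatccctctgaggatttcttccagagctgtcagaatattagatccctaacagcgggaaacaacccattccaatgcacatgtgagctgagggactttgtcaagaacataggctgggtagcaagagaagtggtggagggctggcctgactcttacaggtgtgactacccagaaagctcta
Of the 50-base windows of the main transcripts, 15.3% of those of Tlr1 and 12.5% of those of Tlr6 occurred in the other gene. No other pair among the 10 members shared a run longer than 18 bases. How the counting treated such reads is not given in the sources used here, so the split between Tlr1 and Tlr6 is uncertain.

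The sequences before the start of Tlr2 and Tlr9 are given because these were the members that passed the test for a change. RefSeq upstream windows of 250 bases (GRCm38.p6) were at hand for 7 of the 10 members, and they were searched on both strands for the loose NF-kB motif GGGNNNNNCC, the PU.1 core GAGGAAG and the interferon-stimulated response element GAAANNGAAA. For Tlr2 only the 91 bases outside the annotated gene are printed (chr3:83841768-83841858, minus strand), and for Tlr9 the whole window (chr9:106222348-106222597, plus strand). Capitals mark the matches, to the NF-kB motif in Tlr2 and to the PU.1 core in Tlr9.
Tlr2: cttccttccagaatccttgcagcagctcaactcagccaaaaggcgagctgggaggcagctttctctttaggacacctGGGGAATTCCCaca
Tlr9: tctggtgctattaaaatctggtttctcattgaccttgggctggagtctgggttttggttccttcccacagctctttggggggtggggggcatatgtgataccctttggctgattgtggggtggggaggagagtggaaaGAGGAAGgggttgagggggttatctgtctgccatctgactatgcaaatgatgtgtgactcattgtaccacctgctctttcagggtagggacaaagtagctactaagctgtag
The capitals in Tlr2 hold 3 overlapping matches over 11 bases, 14 to 4 bases before the annotated gene. Counted from the RefSeq start, which lies inside the annotated gene, they stand at -173 to -163. Such matches are common: 45.8% of 32851 windows held the NF-kB motif and 10.6% the PU.1 core. Members that did not pass the test held them too, the NF-kB motif in Tlr3 and Tlr6 and the PU.1 core in Tlr1 and Tlr13. The response element stood in 2.98% of windows, among them a Tlr6 window. A match is a description of letters and not a binding site.

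Tlr2 (chr3:83836272-83841767) was higher in injured microglia than in NI microglia. In the NI samples its normalized count was 186, 168 and 159 CPM. At 72 h it was 284, 406 and 405 CPM after HS and 406, 366 and 374 CPM after FT. All 17 injured samples lay above all 3 NI samples, and no value of the injured groups came below 284 CPM. The share of all genes separated in this way was not counted. The same holds for the counts of injured samples above or below NI given below for other genes. At 1 week Tlr2 stood at 541 and 469 CPM after HS and at 309, 498 and 515 CPM after FT. At 2 weeks the values were 433, 531 and 489 CPM after HS and 495, 598 and 574 CPM after FT. The group means rose from 171 ± 13.9 CPM (SD, n = 3) in NI to 556 ± 54.2 CPM (SD, n = 3) at FT 2 weeks, the highest of the 7 groups.

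The change was tested with limma on log2(CPM + 0.5), on which scale all fold changes below are given. To be called differentially expressed (DE), a gene needed an adjusted p below 0.05 (Benjamini-Hochberg, over all 16810 genes) and had to change 2-fold or more. Tlr2 was DE and higher in all 6 comparisons with NI. After HS its log2 fold change was 1.08 (SE 0.196, adjusted p = 0.00033) at 72 h. It was 1.56 (SE 0.220, adjusted p = 0.00015) after 1 week and 1.50 (SE 0.196, adjusted p = 2.9e-05) after 2 weeks. After FT it was 1.16 (SE 0.196, adjusted p = 0.00018), 1.33 (SE 0.196, adjusted p = 0.00013) and 1.70 (SE 0.196, adjusted p = 3.8e-06). These are rises of 2.11-fold to 3.24-fold. The adjusted p stayed below the threshold under all 32 alternative settings, but the change at 72 h was under 2-fold with quantile scaling (0.57 after HS and 0.74 after FT) and with columns scaled to a common total (0.57 and 0.69). At FT 1 week it was 0.98 with a common total, and at HS 72 h it was 0.99 without HS replicate 2 or without HS replicate 3.

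**Figure D1:**
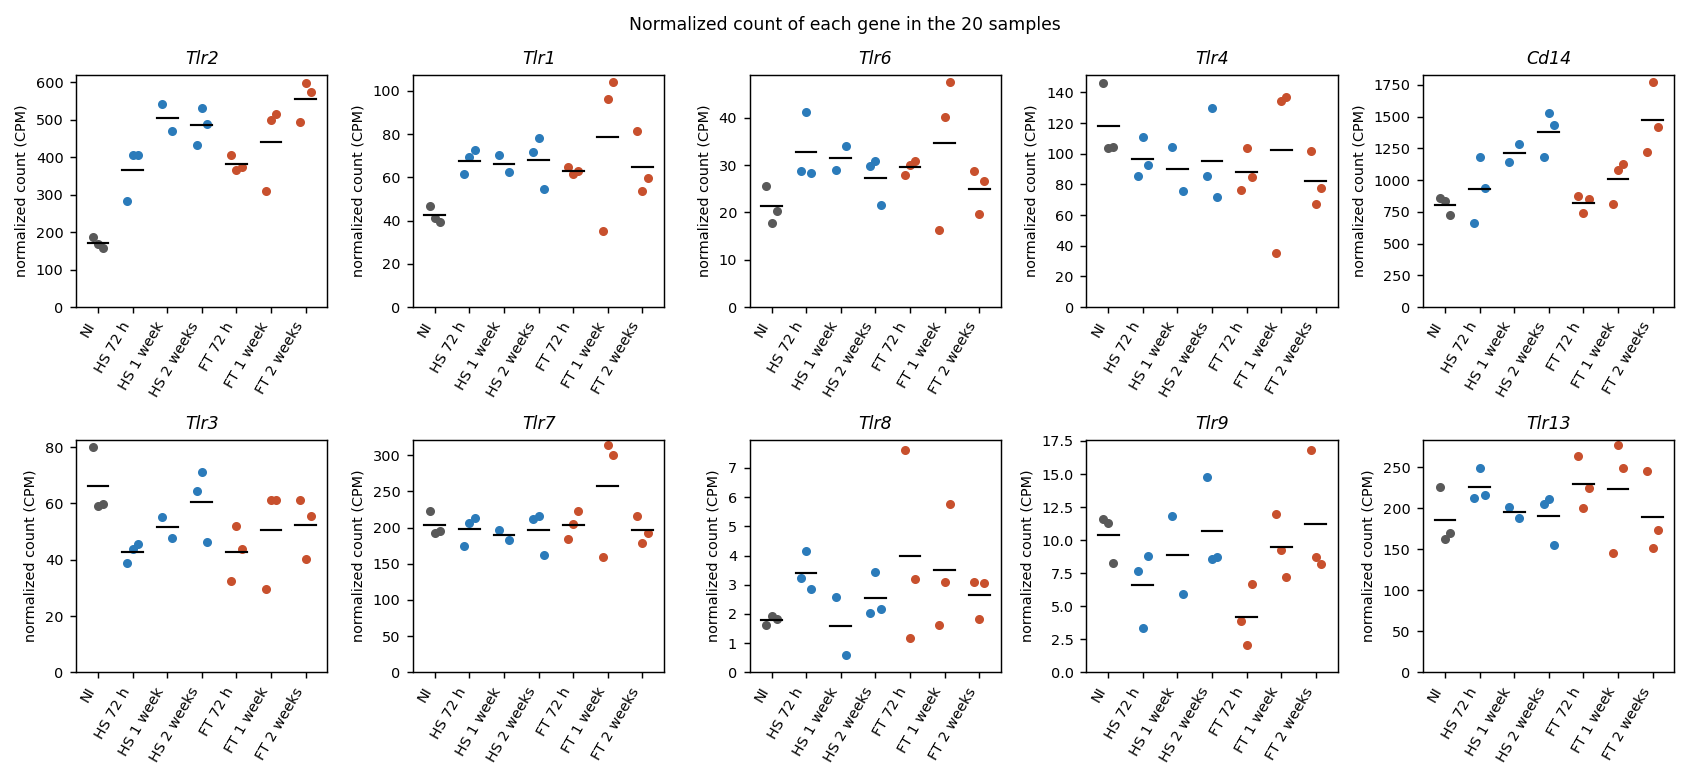
Normalized count (CPM, linear axis from 0) of each member in the 20 samples, with a point per sample and a bar at the group mean; NI is grey, HS blue and FT orange. The 17 injured samples of Tlr2 lie above its 3 NI samples, while FT 1 week replicate 1 is the low point of Tlr1, Tlr4, Tlr6, Tlr7 and Tlr13.

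Tlr2 was the single member called higher in each of these comparisons. Higher calls made up 9.08% of all genes at HS 72 h, 1.7% at HS 1 week, 2.43% at HS 2 weeks, 8.14% at FT 72 h, 2.86% at FT 1 week and 3.53% at FT 2 weeks. With both directions counted, 1 of 10 members was called at HS 72 h, against 13.4% of all genes, and at FT 72 h 2 of 10 were called, against 12.2%. At the later times 1 of 10 was called each time. The background was then 2.18% (HS 1 week), 3.23% (HS 2 weeks), 4.05% (FT 1 week) and 4.88% (FT 2 weeks) of genes. The median change of the 10 members was at least -0.0042 and at most 0.30 in these comparisons, and that of all genes between -0.11 and 0.02.

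The partners of TLR2 did not pass the test. Tlr1 stood at 46.6, 41.3 and 39.1 CPM in NI, and 16 of the 17 injured samples were higher, between 53.6 and 104 CPM. The exception was FT 1 week replicate 1 at 35.2 CPM. Its log2 fold changes were between 0.57 and 0.74, with a smallest adjusted p of 0.074 at HS 72 h, and positive in all 6 comparisons under every scaling run. Without FT 1 week replicate 1 the change at FT 1 week was 1.23 (limma, adjusted p = 0.00011), and Tlr1 was then called there.

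Tlr6 was at 25.6, 17.8 and 20.3 CPM in NI and between 16.3 and 47.5 CPM in injured samples, of which 14 of 17 lay above NI. Its changes of 0.23 to 0.61 all missed the threshold (smallest adjusted p 0.12), and without FT 1 week replicate 1 that at FT 1 week was 1.04 (adjusted p = 0.0033). With columns scaled to a common total the change at FT 2 weeks was below 0. The ratio of Tlr1 to Tlr6 was 1.82 to 2.33 in NI and 1.68 to 2.83 in the injured samples, and the ranges overlapped. Ratios of Tlr2 to each partner, which do not move when a sample is scaled by a constant factor, stood apart from NI. Tlr2 over Tlr1 was 3.99 to 4.08 in NI and 4.61 to 11.2 after injury, and Tlr2 over Tlr6 was 7.26 to 9.49 in NI and 9.85 to 30.5 after injury. These ratios were described and not tested.

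Tlr4, the receptor that serves the same ligand as Cd14, did not pass the test. Tlr4 (chr4:66827584-66930284) stood at 146, 104 and 105 CPM in NI and between 35.4 and 137 CPM after injury, where 12 of 17 samples lay below NI and none above. Its log2 fold changes were between -0.53 and -0.28 and none passed (smallest adjusted p 0.42). With an SE of 0.353 or more, the 95% interval at FT 2 weeks ran from -1.26 to 0.21, so that a fall of over 2-fold cannot be told from no change.

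Cd14 (chromosome 18) was the most abundant member. In NI it was at 859.6, 836 and 724 CPM. At 72 h it was at 662, 1183 and 941 CPM after HS and at 871, 742 and 853 CPM after FT, so the groups overlapped with NI. At 1 week it reached 1145 and 1281 CPM after HS, above NI, and 808, 1080.5 and 1129 CPM after FT, where replicate 1 lay within NI. At 2 weeks all 6 samples lay above NI, with 1179, 1532 and 1431 CPM after HS and 1225, 1776 and 1421 CPM after FT.

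The log2 fold change of Cd14 at 2 weeks was 0.77 after HS (limma, SE 0.219, adjusted p = 0.044) and 0.86 after FT (SE 0.219, adjusted p = 0.015), both past the adjusted p and under 2-fold. At that threshold alone, 3.84% and 6.21% of genes were higher. At 72 h its change was 0.17 and 0.03 and at 1 week 0.59 and 0.31, and none of these passed. The sign at 72 h and at FT 1 week turned negative with quantile scaling or a common total, and the 2-week changes then were 0.27 to 0.46 and did not pass. The HS 2 weeks change lost its adjusted p without any single NI or HS 2 weeks sample (0.056 to 0.18), and that at FT 2 weeks without NI replicate 3 (0.080) or FT 2 weeks replicate 2 (0.098). The ratio of Tlr2 to Tlr4 was 1.27 to 1.62 in NI and 3.33 to 8.91 in injured samples, without overlap. The ratio of Cd14 to Tlr4 was 5.88 to 8.06 in NI and 7.16 to 26.5 after injury, with overlap. Neither ratio was tested.

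**Figure D2:**
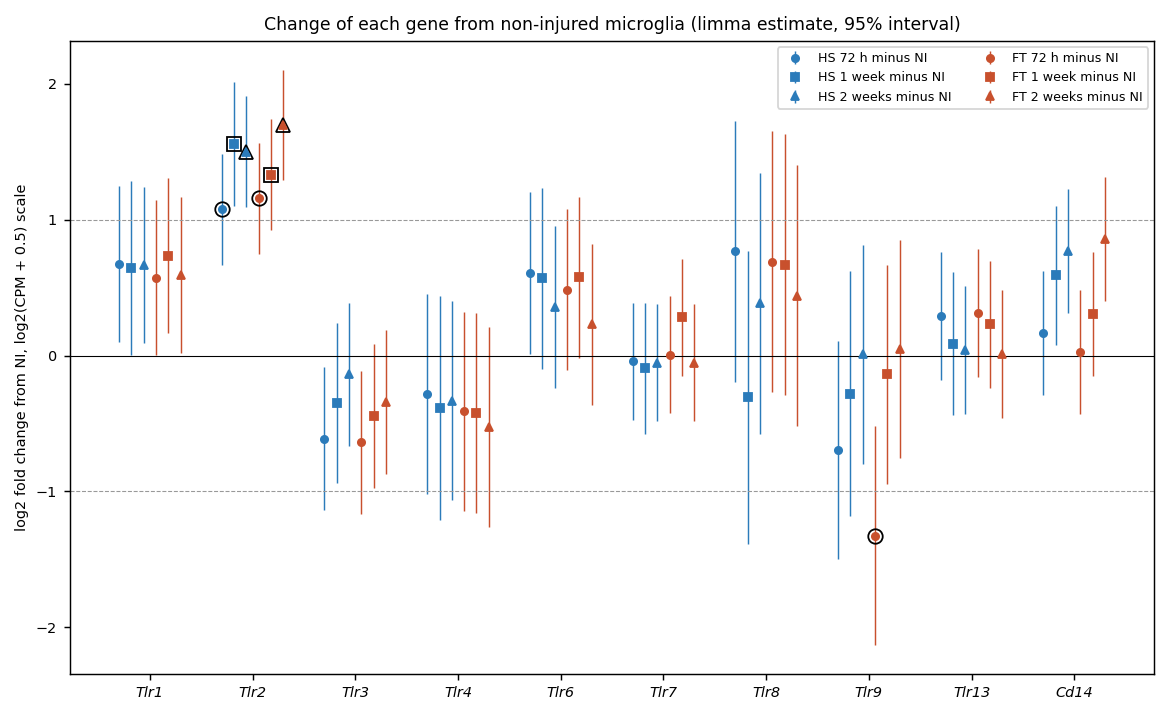
Log2 fold change from NI of each member in the 6 injured groups, on the log2(CPM + 0.5) scale, with 95% intervals from limma; blue is HS, orange FT, circles 72 h, squares 1 week and triangles 2 weeks, dashed lines mark 2-fold and black outlines the changes called DE. All 6 points of Tlr2 are called, from 1.08 to 1.70, and the only other called point is Tlr9 at FT 72 h, at -1.32.

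Among the receptors of endosomes, Tlr9 alone passed the test. Tlr9 (chr9:106222598-106226883), the sensor of unmethylated CpG DNA, was at 11.6, 11.3 and 8.25 CPM in NI. At 72 h it was at 7.66, 3.39 and 8.82 CPM after HS and at 3.87, 2.04 and 6.68 CPM after FT. The FT values lay below all NI values, and the HS values overlapped with them. At 1 week it stood at 11.8 and 5.89 CPM after HS and at 12.01, 9.28 and 7.18 CPM after FT. At 2 weeks it was at 14.8, 8.55 and 8.70 CPM after HS and at 16.8, 8.71 and 8.17 CPM after FT. All 4 of these later groups overlapped with NI.

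Tlr9 was DE and lower at FT 72 h, with a log2 fold change of -1.32 (limma, SE 0.387, adjusted p = 0.016). In that direction 4.09% of all genes were called. At HS 72 h the change was -0.69 (adjusted p = 0.19), and FT and HS at 72 h differed by -0.63 (95% interval -1.44 to 0.17, adjusted p = 1.00). The call rests on few reads: FT 72 h replicate 2, the shallowest sample, held 7 Tlr9 reads, and the other two FT 72 h samples 31 and 75. Without FT 72 h replicate 2 the change was -0.95 (adjusted p = 0.10), without NI replicate 1 it was -1.24 (adjusted p = 0.052) and without NI replicate 2 it was -1.26 (adjusted p = 0.059).

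Tlr3, the sensor of double-stranded RNA, was at 80.0, 58.9 and 59.7 CPM in NI and at 29.5 to 71.0 CPM after injury, with 12 of 17 samples below NI. All 6 samples of 72 h lay below NI, at 39.0, 43.6 and 45.7 CPM after HS and 32.4, 52.0 and 43.6 CPM after FT. Its log2 fold changes there, -0.61 and -0.64, missed the threshold (adjusted p = 0.077 and 0.071). With columns scaled to a common total they were -1.12 and -1.11 and were called, in a setting that moved the median of all genes at 72 h to -0.52 after HS and -0.48 after FT.

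Tlr7 and Tlr13, which sense single-stranded RNA and bacterial ribosomal RNA, had small changes. Tlr7 was between 192 and 223 CPM in NI and between 159.6 and 314 CPM after injury, with changes of -0.09 to 0.28. Tlr13 was between 162 and 226 CPM in NI and between 145 and 277 CPM after injury, with changes of 0.01 to 0.31. No comparison of either gene with NI passed (smallest adjusted p 0.54 and 0.33), and their signs depended on the scaling: with a common total Tlr7 was lower at 72 h by changes of -0.55 after HS (adjusted p = 0.018) and -0.46 after FT (adjusted p = 0.044), under 2-fold, and Tlr13 had changes of -0.38 to -0.12 over the 6 comparisons. At FT 72 h the 95% intervals were -0.43 to 0.44 for Tlr7 and -0.16 to 0.78 for Tlr13.

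Tlr8, the neighbour of Tlr7 on the X chromosome, was scarce, at 1.61, 1.93 and 1.82 CPM in NI and 0.601 to 7.61 CPM after injury, from 4 to 98 reads per sample. Its changes were between -0.31 and 0.77 and none passed (smallest adjusted p 0.23). Within FT 72 h alone it was at 7.61, 1.17 and 3.21 CPM, and without replicate 2 the change there was 1.26 (adjusted p = 0.049).

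Groups without overlap with NI were also counted, whatever the size of the change. At 72 h 5 of 10 members after HS and 6 of 10 after FT did not overlap with NI, against 49% and 44.9% of all genes. At 1 week this held for 5 of 10 after HS and 1 of 10 after FT, against 37.3% and 21.5%. At 2 weeks it held for 4 of 10 in both injuries, against 24.8% and 30.7%.

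To set genes side by side, levels were divided by exon length. That length was the union of the annotated exons of a gene, 5467 bases for Tlr4, whose main transcript has 4077. The order of genes with near levels therefore depends on the annotation. The uncertain split of reads between Tlr1 and Tlr6 enters it too. In NI, per kb of exon, the order was Cd14 (491 ± 44.2 CPM per kb, SD, n = 3), Tlr2 (56.7 ± 4.62), Tlr7 (51.3 ± 4.30), Tlr13 (45.8 ± 8.57), Tlr4 (21.6 ± 4.43), Tlr3 (14.8 ± 2.67), Tlr1 (13.6 ± 1.23), Tlr6 (5.78 ± 1.09), Tlr9 (2.99 ± 0.537) and Tlr8 (0.521 ± 0.0477). The sample ranges of Tlr2 and Tlr7, of Tlr7 and Tlr13, and of Tlr3 and Tlr1 overlapped, and the other neighbours in the order stood apart. At FT 2 weeks Tlr2 reached 184 ± 18.0 CPM per kb and was apart from Tlr7 (49.5 ± 4.77). Tlr1 (20.8 ± 4.73) then stood before Tlr4 (15.0 ± 3.24) and Tlr3 (11.7 ± 2.39), with overlap between each of these neighbours.

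**Figure D3:**
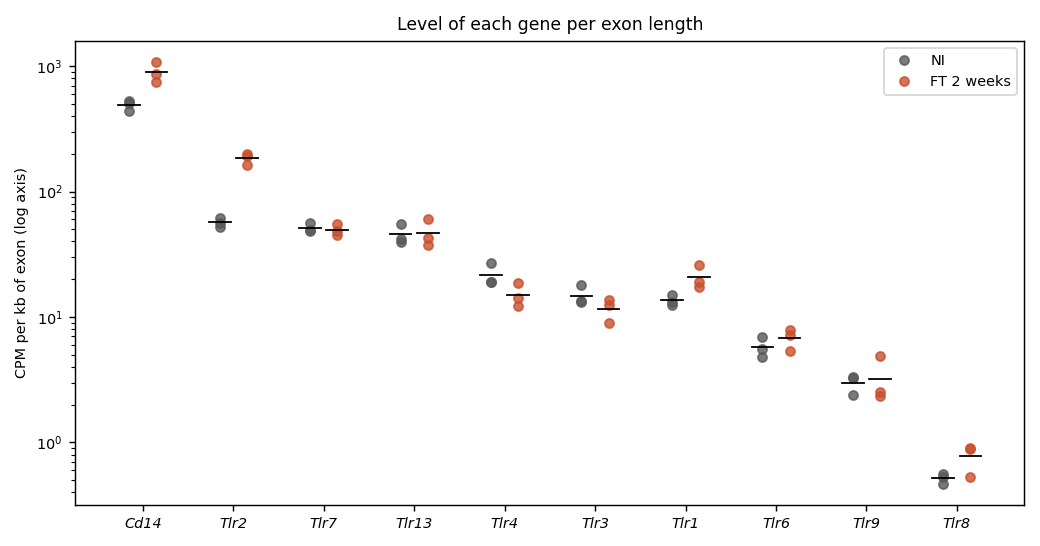
Level of each member per kb of exon (CPM per kb, log axis) in the 3 NI samples (grey) and the 3 FT 2 weeks samples (orange), a bar at each mean, in the NI order. Levels run from 491 CPM per kb for Cd14 to 0.521 for Tlr8 in NI, and Tlr2 moves from 56.7 to 184.

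Severity gave no difference that passed the test. FT was set against HS at 72 h, 1 week and 2 weeks, and limma called 0 of 30 pairs of a member and a time, against 0% of genes at each time. None had an unadjusted p under 0.05, and edgeR's quasi-likelihood and likelihood ratio tests and DESeq2 called 0 as well. The differences were between -0.63 (Tlr9 at 72 h) and 0.98 (Tlr8 at 1 week), and their 95% intervals reached from -1.44 to 2.05. For Tlr2 the FT minus HS difference was 0.08 (interval -0.32 to 0.49) at 72 h, -0.23 (-0.69 to 0.23) at 1 week and 0.20 (-0.21 to 0.61) at 2 weeks. Cd14 at 1 week was the single pair whose samples did not overlap, with 1145 and 1281 CPM after HS above 808 to 1129 CPM after FT, and a difference of -0.28 (interval -0.79 to 0.23). In that direction 8.25% of genes did not overlap.

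Between the times after FT, 1 comparison of a member was called. Tlr9 was 1.37 higher at 2 weeks than at 72 h (limma, SE 0.387, adjusted p = 0.038), where 3.81% of all genes were called (1.13% higher). The call was lost with only the compared groups (adjusted p = 0.096), with edgeR's quasi-likelihood test (1.31, adjusted p = 0.061), without FT 72 h replicate 1 (adjusted p = 0.086) or replicate 2 (0.99, adjusted p = 0.21), and without any single FT 2 weeks replicate (adjusted p from 0.053 to 0.17). Cd14 was 0.83 higher over the same interval (SE 0.219, adjusted p = 0.026), under 2-fold, and 2.01% of genes were higher at that threshold alone. Tlr2 was 0.54 higher (SE 0.196, adjusted p = 0.12), which did not pass, although the 3 samples of 2 weeks all lay above those of 72 h, as in 12.9% of genes. After FT, 3.44% of genes were called at 1 week against 72 h and 0.0714% at 2 weeks against 1 week. After HS no member was called between times by limma, edgeR or DESeq2, and 3 comparisons had an unadjusted p under 0.05: Tlr2 at 1 week and 2 weeks against 72 h (0.48 and 0.42) and Cd14 at 2 weeks against 72 h (0.60). All genes were called at 6.03% (1 week against 72 h), 4.74% (2 weeks against 72 h) and 0.0119% (2 weeks against 1 week) after HS.

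Replicates of a group did not vary independently from member to member. Deviations from the group means of Tlr1, Tlr3, Tlr4, Tlr6, Tlr7 and Tlr13 went together over the 20 samples, with Pearson r of 0.72 to 0.94 in 15 pairs (median 0.89). Tlr2 and Cd14 went together at r = 0.83, and each with those 6 genes at r of 0.15 to 0.71. Without FT 1 week replicate 1, over 19 samples, the 15 pairs had r of 0.50 to 0.85 (median 0.69), Tlr2 and Cd14 had 0.84, and the pairs between the sets had -0.20 to 0.27. This omission was chosen after seeing the data. In that sample Tlr4 was at 35.4 CPM against 135 and 137 CPM in the other two of its group, and Tlr1 at 35.2 against 96.0 and 104 CPM. The 6 genes were set together after their values were seen, and the samples share depth and scaling, so these correlations are descriptions with no test. Replicates also differed in the sum of 10 immediate-early and heat-shock genes. At 2 weeks it was 1468 CPM in HS replicate 1 and 613 CPM in FT replicate 1, against 6036 to 8121 CPM in the others. Tlr2 and Cd14 were lowest of their groups in both. They were also lowest in FT 1 week replicate 1, where the sum was the highest of its group (4083 CPM). In NI replicate 1 and FT 72 h replicate 1 the sum was the lowest of its group and both genes were the highest. In HS 72 h replicate 1 the sum and both genes were the lowest. In HS 1 week the replicate with the lower sum had the lower Tlr2 and the higher Cd14. The part of this sum was not tested.

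**Figure D4:**
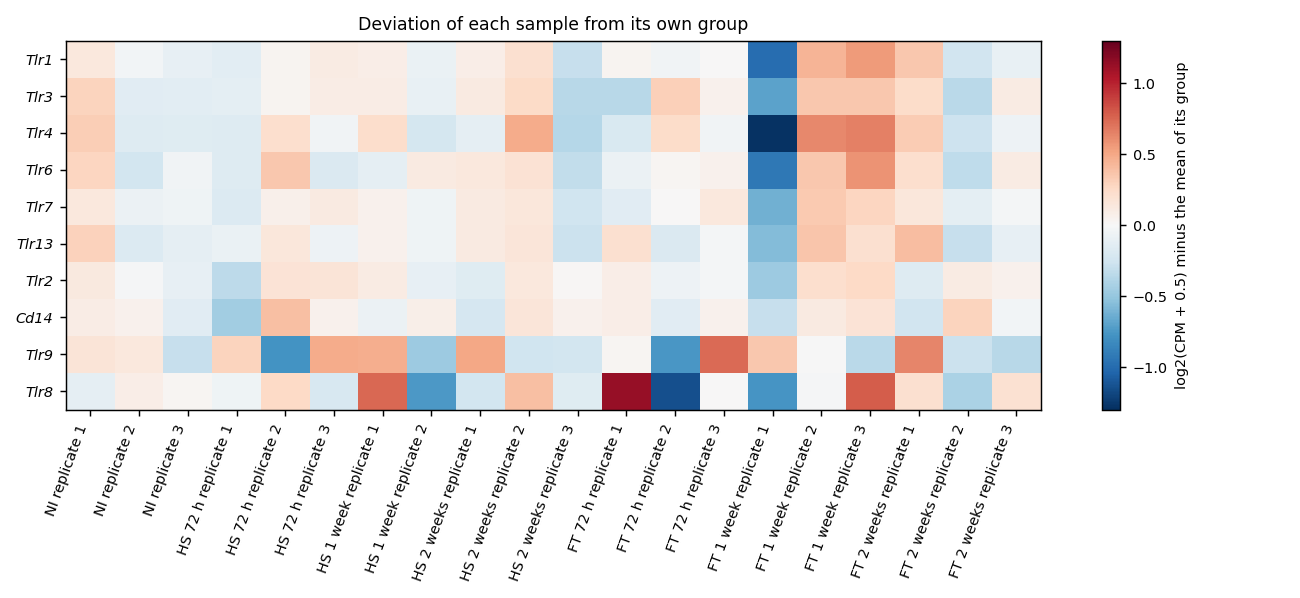
Deviation of each sample from the mean of its own group, as log2(CPM + 0.5), for the 10 members (rows) and 20 samples (columns), blue below and red above the group mean. The column of FT 1 week replicate 1 is blue for every member except Tlr9.

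The genes most like each member over the 20 samples were sought by Pearson r of log2(CPM + 0.5) among 9871 genes with a mean of at least 5 CPM. The r values printed are the 2 highest found for each member, so they are high by selection. They take in differences between groups and the deviations of FT 1 week replicate 1. The search was not repeated without that sample. Tlr2 was most like Clec7a (r = 0.95), the beta-glucan receptor Dectin-1, and Usp18 (r = 0.95), an interferon-induced protease that removes ISG15. Cd14 was most like H2-K1 (r = 0.89), a class I histocompatibility gene, and Cyb5r1 (r = 0.89). Tlr4 was most like Zfp260 (r = 0.94) and Gpr34 (r = 0.94), a microglial receptor, and Tlr7 was most like Slc9a9 (r = 0.87) and Csf1r (r = 0.84), the receptor for colony stimulating factor. Tlr1 was most like Ncstn (r = 0.91) and Adam17 (r = 0.90), and Tlr6 like Cd33 (r = 0.90) and Gpatch2l (r = 0.89). Tlr3 was nearest to Lpar6 (r = 0.90) and Agmo (r = 0.89), Tlr13 to Cdc23 (r = 0.89) and Stk4 (r = 0.88), Tlr9 to Lipe (r = 0.88) and Ficd (r = 0.87), and Tlr8 to Inpp5b (r = 0.75) and Tubgcp4 (r = 0.74).

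The rest of the pathway was described with 36 further genes, all of them measured. Of these, 7 were called in at least 1 of the 6 comparisons with NI and 29 in none. Against NI, 5 of 36 were called at HS 72 h and 7 of 36 at FT 72 h, where 13.4% and 12.2% of all genes were called. At HS 1 week, HS 2 weeks and FT 2 weeks it was 3 of 36, against 2.18%, 3.23% and 4.88% of all genes, and at FT 1 week 4 of 36, against 4.05%. The median change of the list was between 0.00 and 0.18. Changes of single genes of the list are given below for the main scaling only. With a common total the median of all genes was -0.52 at HS 72 h, -0.48 at FT 72 h and -0.32 at FT 1 week. Calls close to 2-fold, such as those of Ly86 and Cd180, may therefore depend on the scaling.

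Among the other receptors, Tlr5, the sensor of flagellin, fell in all 6 comparisons, by 1.42 to 1.98 on the log2 scale (largest adjusted p 0.0061). It stood at 9.35, 7.34 and 9.11 CPM in NI and at 1.31 to 4.11 CPM in all 17 injured samples, without overlap. For this separation, too, the share of all genes was not counted. Tlr12, a receptor for profilin of protozoa, was at 22.7, 21.6 and 21.8 CPM in NI and at 4.74, 9.93 and 8.55 CPM at FT 72 h. It was lower there by a log2 change of -1.51 (adjusted p = 0.00025), while the change at HS 72 h of -0.94 (adjusted p = 0.011) was under 2-fold. Tlr12 was then called higher in both injuries at 1 week and 2 weeks than at 72 h, by 1.17 to 1.88. Tlr11, which was scarce, was not called against NI.

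Of the 5 co-receptors, Cd180 and its partner Ly86, a receptor pair related to TLR4 and MD-2, were called in 2 comparisons each. Ly86 rose at 72 h, by 1.12 after HS (adjusted p = 0.0054) and 1.18 after FT (adjusted p = 0.0041), from 1607 to 2191 CPM in NI to 3308 to 6665 CPM after FT. Cd180 rose by 1.05 at FT 72 h (adjusted p = 0.00037) and 1.02 at FT 1 week (adjusted p = 0.0017). Ly96, which encodes MD-2, had changes between -0.41 and -0.02 and was not called.

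No gene was called among the 6 adaptors or the 4 genes of endosomal traffic and folding. Myd88 had changes between -0.21 and 0.25, and Unc93b1, which carries receptors to endosomes, between -0.02 and 0.33. Of 11 kinases and ligases, only Ikbke was called; it encodes a kinase that phosphorylates IRF3 and IRF7. It rose in all 6 comparisons, by 1.57 to 3.32 (largest adjusted p 0.00036), from 1.43 to 2.30 CPM in NI to 4.33 to 29.0 CPM after injury. Irf7, a factor that drives type I interferon genes, was the only 1 of 3 transcription factors called. It rose in all 6 comparisons, by 1.63 to 2.90 (largest adjusted p 0.00023), from 14.6 to 20.8 CPM in NI to 47.5 to 201 CPM. Of 4 inhibitors, Sigirr rose at 72 h, by 1.30 after HS (adjusted p = 0.00025) and 1.63 after FT (adjusted p = 2.4e-05), from 1.82 to 2.44 CPM to 5.13 to 9.17 CPM. Irf7, Ikbke, Sigirr, Cd180 and Ly86 each had all 17 injured samples above NI. How many of all genes are separated in this way was not counted.

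**Figure D5:**
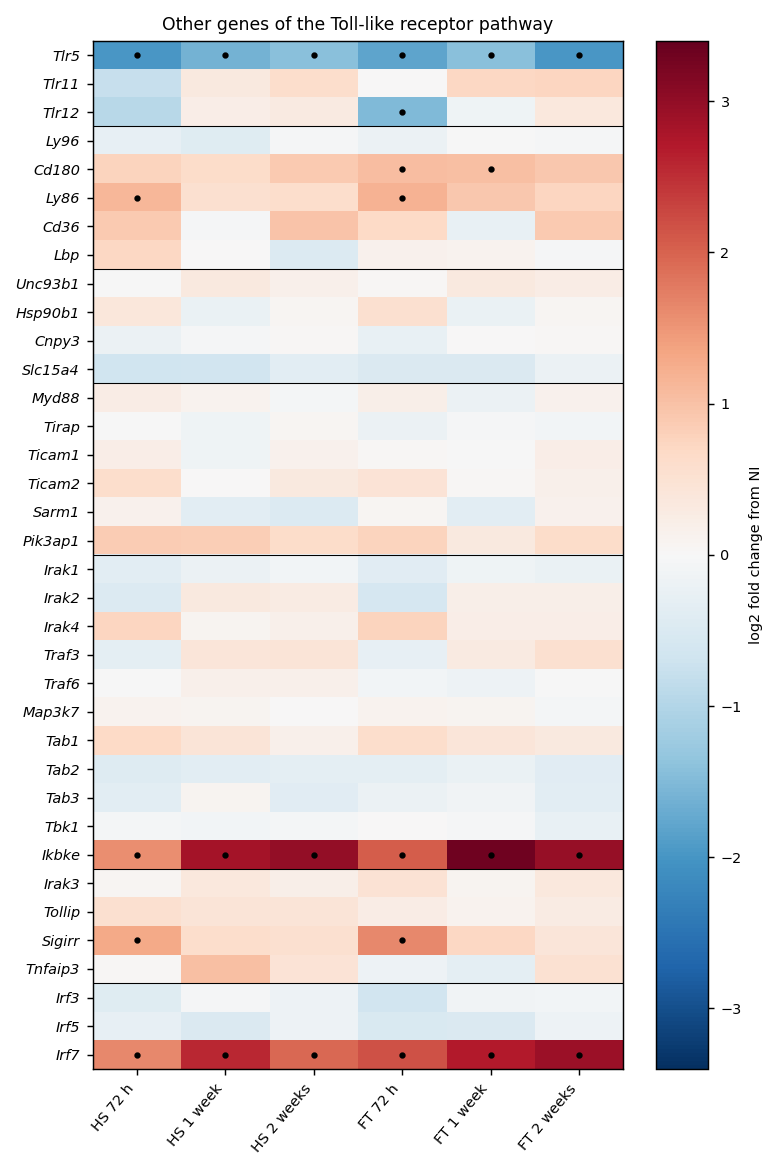
Log2 fold change from NI of the 36 other genes of the pathway (rows, separated by role) in the 6 injured groups (columns), red higher and blue lower, with a dot where limma called the change DE. Dots fill the rows of Tlr5, Ikbke and Irf7, and 29 rows have none.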

How the data were processed

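Polyadenylated RNA of sorted microglia was sequenced in 20 samples of 7 groups. The authors mapped reads with TopHat2 2.0.9 (per the labels, mm10), counted them per gene with HTSeq 0.5.4p3 and normalized with edgeR 3.3.6, and they deposited the resulting signal, in CPM of the library size times its edgeR factor. Strandedness is not given in the sources used here. All 336200 values (100%) were whole reads within 0.001 of a step. Reads recovered in this way were used for count tests. The depth figures give the worth of a read and do not measure counting error. In the limma fit all samples had equal weight, whatever their depth.

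Members and lists were chosen with earlier results of these data known. limma 3.58.1 (R 4.3.3) was fitted to log2(CPM + 0.5) over all 20 samples with 7 group means and an intensity trend, for 15 comparisons, with Benjamini-Hochberg adjustment over 16810 genes. Alternatives were 0.1 or 1 CPM added, a filter (1 CPM in 2 samples), only the compared groups, other scalings, no fold limit, a replicate block, edgeR 4.0.16 (quasi-likelihood and likelihood ratio tests), DESeq2 1.42.0 and leaving out each sample. The fits were tested on simulated data. Named are all members, pathway genes called against NI, and the 2 genes most like each member. Tlr12 and Tlr11 between times, and Ly96, Myd88 and Unc93b1, were named after their values were seen. Gene positions came from GENCODE on GRCm38 and promoters from RefSeq (GRCm38.p6). Of 41 same-numbered pairs of samples, 14 had a correlation of deviations over 0.1 (range -0.40 to 0.39). Among comparisons with 3 pairs, only FT 72 h against HS 72 h had all of them over it (0.14, 0.27 and 0.19). Both pairs were over it in HS 1 week against 72 h (0.16 and 0.26) and in HS 2 weeks against 1 week (0.11 and 0.19).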

Additional observations from a re-analysis of the deposited data

Results flagged for a closer look

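Tlr9 was set apart by a difference between times after full transection. It was 1.37 higher on the log2 scale at 2 weeks than at 72 h (limma, adjusted p = 0.038), with 8.17 to 16.8 CPM in the 3 samples of 2 weeks and 2.04 to 6.68 CPM in those of 72 h, of which replicate 2 held 7 reads. The call was lost with edgeR's quasi-likelihood test (adjusted p = 0.061), with only the compared groups (adjusted p = 0.096), without FT 72 h replicate 1 or 2, and without any single FT 2 weeks replicate. The contrast between times after HS was 0.70 (adjusted p = 0.26), and the difference between the injuries in this change was not tested. No group had the 4 samples needed to test for a sample far from the others.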

How the results depend on the processing

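None of the called changes reversed under the alternatives, but several calls were lost under some of them. These were both Tlr9 calls and the Tlr2 calls at HS 72 h, FT 72 h and FT 1 week. The Tlr2 calls at 72 h were lost with quantile scaling and with a common total. For single members 4771 results stayed on the same side of the threshold, 12 gained a call and 17 lost it. Most of those that stayed were not called in the main fit either. Calls of members against NI numbered 3 after HS and 4 after FT, and leaving out a sample gave 2 to 3 and 3 to 6, with 6 without FT 1 week replicate 1. FT against HS gave 0 throughout, as did the times after HS. Between times after FT, 1 member was called. That count was 0 with only the compared groups or with edgeR's quasi-likelihood test and 2 with quantile scaling, with no fold limit or with the replicate block, and leaving out a sample gave 0 to 2. It was 0 without FT 72 h replicate 1 or 2 or any FT 2 weeks replicate, and 2 without FT 72 h replicate 3. With no fold limit the pathway list gave 39 calls instead of 25, and leaving out a sample gave 23 to 28. The replicate block changed no other count of members. Its additional call was Tlr9 at FT 1 week against 72 h (limma, 1.19, adjusted p = 0.040). The deviations of same-numbered samples there had correlations of -0.05, -0.27 and -0.16. In FT 72 h against HS 72 h, where these were 0.14, 0.27 and 0.19, the block called 0 members. Whether samples of the same number were paired is not given by the labels. Over all genes, calls against NI numbered 4585 at HS 72 h (2250 with the limit), 4060 at FT 72 h (2057), 839 at HS 2 weeks (543), 1182 at FT 1 week (681) and 1373 at FT 2 weeks (821) with no fold limit. With a common total FT 72 h gave 3364 and HS 72 h 3820. HS 1 week, with 367, gave 652 with only the compared groups and 166 or 172 without HS 1 week replicate 1 or 2, and FT 1 week gave 1078 without its replicate 1. The cause of these changes was not tested. Groups of 2 or 3 samples and the few reads of Tlr8 and Tlr9 limit what could be detected.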
